A study of Mus musculus with 32 samples.

Results

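The 40 genes followed here encode parts of the cell division cycle, and they were read in all 32 RNA sequencing libraries of a study of mouse mammary tumors. They were chosen by name, and each of the 4 deposited tables held all 40 among its 33654 rows with a gene symbol. By textbook role, 16 were placed with S phase and entry into it and 24 with G2 and mitosis. The time course held MMTV-PyMT tumor cells, with 3 libraries at week 2 and 4 each at weeks 3 and 4, and CD8 T cells from the tumors, with 3 libraries at each of these weeks. The knockdown set held MMTV-PyMT tumor cells and CD8 T cells, each labelled shCTRL (genotype WT) or shMogat1 (genotype Mogat1 knockdown), with n = 3 in each of 4 groups. In that set the samples came from xenografts, so the arm of a CD8 T cell library names the tumor it came from. MMTV-PyMT is a mouse model in which a viral oncogene under a mammary promoter gives rise to breast tumors. No label says whether replicates were separate animals, so p-values measure only the spread between these libraries, which may be technical.

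A cell that is about to divide loads MCM helicases onto its DNA with the help of Cdc6 and Cdt1. It then copies the DNA with the sliding clamp Pcna and with nucleotides made by ribonucleotide reductase (Rrm1, Rrm2) and thymidylate synthase (Tyms), and many genes of this step are known targets of E2F transcription factors. Mitosis follows under cyclin B and Cdk1, with Aurora and Polo kinases, kinesin motors, centromere proteins and the spindle checkpoint, whose genes are often driven through a CHR element and CCAAT boxes. In tumors these genes mark dividing cancer cells, and in CD8 T cells they mark expansion after antigen.

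The promoters of 7 members are printed to show the letters by which S phase and mitotic genes are often told apart. Mcm5 (chr8:75109309-75109538, plus strand) and Mcm6 (chr1:128359676-128359905, minus strand) encode subunits of the replicative helicase. Mki67 (chr7:135716350-135716579, minus strand) encodes the proliferation antigen Ki-67, Top2a (chr11:99024160-99024389, minus strand) the topoisomerase that untangles sister chromatids, and Bub1b (chr2:118598011-118598240, plus strand) a protein of the spindle checkpoint. Kif23 (chr9:61946770-61946999, minus strand), a kinesin of cytokinesis, and Cenpa (chr5:30666686-30666915, plus strand), the histone H3 variant of centromeres, are shown because their values went apart from those of the other mitotic members. Each stretch runs from 200 bases before to 30 bases after the RefSeq transcript start (build GRCm38.p6) on the strand of the gene, 5′ to 3′, and capitals mark motif letters.
Mcm5: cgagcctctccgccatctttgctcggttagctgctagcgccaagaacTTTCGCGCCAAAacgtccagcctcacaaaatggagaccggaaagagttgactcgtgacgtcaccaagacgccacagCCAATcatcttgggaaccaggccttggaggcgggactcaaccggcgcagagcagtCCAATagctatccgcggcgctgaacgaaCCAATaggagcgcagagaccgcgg
Mcm6: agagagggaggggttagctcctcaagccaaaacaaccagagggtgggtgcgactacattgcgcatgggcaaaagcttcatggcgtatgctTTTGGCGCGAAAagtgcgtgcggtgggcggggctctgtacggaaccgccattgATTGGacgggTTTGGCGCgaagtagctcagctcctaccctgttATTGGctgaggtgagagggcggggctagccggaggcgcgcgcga
Mki67: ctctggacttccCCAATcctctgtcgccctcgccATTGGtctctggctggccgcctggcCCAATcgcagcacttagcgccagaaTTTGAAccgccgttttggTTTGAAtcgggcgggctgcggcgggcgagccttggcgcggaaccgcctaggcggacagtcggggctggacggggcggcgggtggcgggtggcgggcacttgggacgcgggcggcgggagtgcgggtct
Top2a: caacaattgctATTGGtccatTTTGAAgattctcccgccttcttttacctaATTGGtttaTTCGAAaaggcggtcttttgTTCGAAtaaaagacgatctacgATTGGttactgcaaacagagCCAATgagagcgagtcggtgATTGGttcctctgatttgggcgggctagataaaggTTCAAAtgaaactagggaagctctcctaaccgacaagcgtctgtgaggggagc
Bub1b: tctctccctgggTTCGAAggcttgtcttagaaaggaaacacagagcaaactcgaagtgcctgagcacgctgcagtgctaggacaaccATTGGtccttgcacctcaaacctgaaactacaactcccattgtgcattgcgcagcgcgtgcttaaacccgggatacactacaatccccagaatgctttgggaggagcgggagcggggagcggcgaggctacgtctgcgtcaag
Kif23: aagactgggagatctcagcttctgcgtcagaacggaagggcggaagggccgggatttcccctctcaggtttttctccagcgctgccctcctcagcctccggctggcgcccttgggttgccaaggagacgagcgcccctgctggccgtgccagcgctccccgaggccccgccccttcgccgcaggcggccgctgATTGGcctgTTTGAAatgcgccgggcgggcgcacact
Cenpa: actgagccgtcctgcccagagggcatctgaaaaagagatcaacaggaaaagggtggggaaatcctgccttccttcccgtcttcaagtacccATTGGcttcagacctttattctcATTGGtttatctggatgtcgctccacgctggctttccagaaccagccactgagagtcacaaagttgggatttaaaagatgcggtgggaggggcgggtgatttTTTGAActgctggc

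The motifs were searched on both strands and may overlap: an E2F site as TTTCCCGC, TTTCGCGC, TTTGCCGC or TTTGGCGC, a CHR element as TTTGAA or TTCGAA, and a CCAAT box as CCAAT. Mcm5 held E2F matches that overlap, first bases at -153 and -149 from the start, and Mcm6 held 3 E2F matches, with no CHR match in either stretch. Mki67 held 2 CHR matches and Top2a 4, with no E2F match. Kif23 and Cenpa each held 1 CHR match, and in both it lay past the RefSeq start, at position 3 and at position 17. The gene record of Kif23 given below starts further downstream, at 61946774 on the minus strand. The side of its match therefore depends on the start used. Positions were read for the printed members only.

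RefSeq gave a promoter of 300 bases for 32 of the 40 members (not for Aurkb, Ccna2, Ccne2, Foxm1, Gins2, Kif20a, Mcm4 and Tpx2). Genes of the lists are counted once, with a match in any of their promoters, while the share of all promoters counts each of 32851 promoters of 27025 genes. An E2F match stood in 6 of 13 (46.2%) S phase members and 1 of 19 (5.3%) mitotic members, against 2.3% of all 32851 promoters. A CHR match stood in 2 of 13 (15.4%) S phase members and 15 of 19 (78.9%) mitotic members, against 19.2% of all promoters. CCAAT boxes stood in 8 of 13 (61.5%) and 17 of 19 (89.5%), against 37.4%. Other genes of the pathway had the same order: CHR matches stood in 30 of 43 (69.8%) other mitotic genes and 7 of 31 (22.6%) other replication genes. A match is a run of letters and not a shown binding site.

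**Figure D1:**
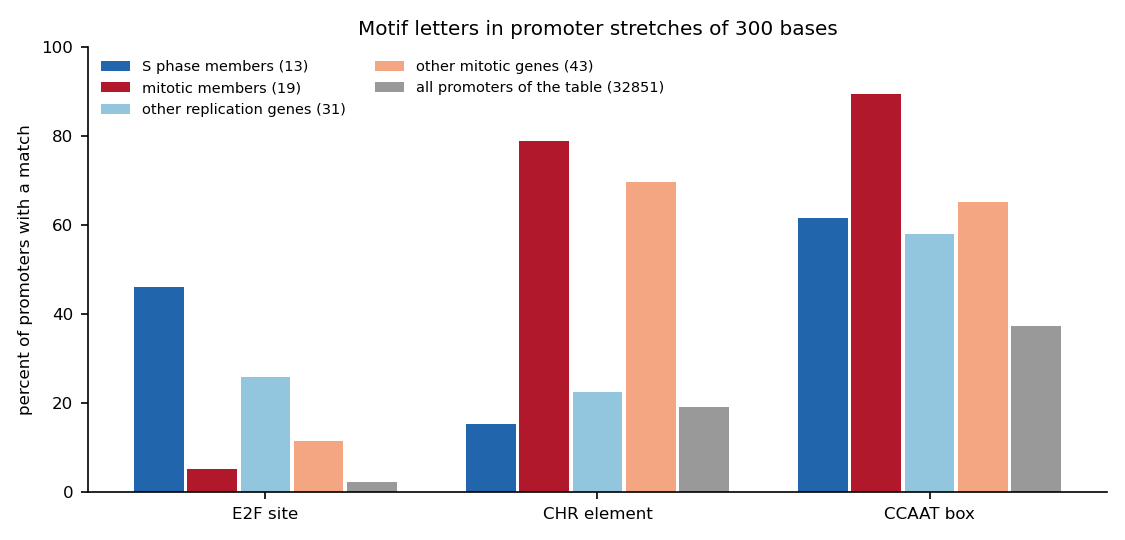
Bars give the percent (y axis) with at least 1 match to each motif (x axis), counted by gene in the gene lists and by promoter for all promoters. CHR matches stood in 78.9% of mitotic members and 15.4% of S phase members, and E2F matches in 5.3% and 46.2%.

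Values are TPM, shares of all transcripts that are scaled for gene length and library size, so levels can be set beside each other between genes. All 40 members passed the filter on low values in every table. The lowest value of any member was 1.45 TPM (Kif20a, CD8 T cells of week 2), and the fewest reads behind a value, read from the steps of the TPM values, were 53 (Ttk in the CD8 time course). Pcna was the most abundant member in each of the 10 groups, at a mean of 314 (tumor cells, shMogat1) to 627 TPM (CD8 T cells, week 4), and the least abundant was Kif20a or Ccne2. Read numbers of replicates differed 2.29 to 4.43 times as much as counting error gives (chi-square per degree of freedom) in the knockdown set. In the time course they differed 8.62 to 87.3 times as much. Replicates thus differed by more than counting error, but whether some share 1 source of RNA was not tested. The smaller spread in the knockdown set gives smaller p-values there for a change of the same size. Mitochondrial transcripts took 6.38% to 16.1% of TPM in tumor cells of the time course, highest in week 4 replicate 3, and 3.23% to 7.10% elsewhere.

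Defining markers were set against the labels. The epithelial adhesion gene Epcam was at 305 ± 70.3 to 529 ± 43.5 TPM by week in tumor cells of the time course, but at 0.692 ± 0.155 TPM in tumor cells labelled shCTRL and 29.6 ± 1.17 TPM in those labelled shMogat1. The epithelial keratin Krt8 was at 1.45 ± 0.127 and 39.7 ± 2.83 TPM in these arms, so tumor cells labelled shCTRL nearly lacked both markers. Krt18, another keratin of the same list, was at 203 ± 8.27 TPM in shCTRL and 860.3 ± 22.8 TPM in shMogat1, against 334 ± 66.4 TPM in tumor cells of week 2, and made up nearly all of the epithelial sum in shCTRL. Mogat1, the gene targeted, was listed at 0 in all 3 tumor libraries labelled shCTRL and averaged 0.433 ± 0.253 TPM in those labelled shMogat1. In tumor cells of the time course Mogat1 averaged 2.28 ± 1.45, 6.82 ± 2.17 and 37.1 ± 1.75 TPM at weeks 2, 3 and 4. The order of the knockdown arms in tumor cells goes against the labels, with every value of these arms below 1 TPM. The CD8 libraries, whose arm names the tumor of origin, do not check it, and their arms overlapped, at 0.208, 0.286 and 0.211 TPM under shCTRL and 0.515, 0.577 and 0.208 TPM under shMogat1. The arms are therefore called by their labels throughout. CD8 T cells held Cd8a at 685 to 1099 TPM by group.

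Most mitotic genes and part of the S phase genes rose in CD8 T cells from week 2 to week 4. By limma's moderated test on log2(TPM + 1), adjusted over all 13350 genes tested, 17 of 24 mitotic and 6 of 16 S phase members were higher at week 4, and 1 mitotic member was lower. Of all genes tested, 10.3% were called higher and 7.18% lower. The median log2 fold change was 1.55 over mitotic and 0.82 over S phase members, against -0.01 over all genes. The mean log2(TPM + 1) of the mitotic members was 3.48 ± 0.10 at week 2, 4.43 ± 0.32 at week 3 and 4.78 ± 0.55 at week 4 (SD, n = 3 each), and that of the S phase members 4.98 ± 0.10, 5.45 ± 0.32 and 5.67 ± 0.31. In bulk samples, more dividing cells and more of such RNA per cell cannot be told apart.

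Mki67 (chromosome 7, 135689784 to 135716361, GRCm38, minus strand) was at 27.0, 21.4 and 22.7 TPM in the libraries of week 2, at 73.6, 68.6 and 45.3 TPM in week 3 and at 154, 73.0 and 77.3 TPM in week 4. All later libraries lay above all of week 2, and 1 library of week 4, replicate 2, stood far above the rest (log2 1.97 ± 0.29, SE, adjusted p = 0.00401). Bub1b (chromosome 2, 118598211 to 118641591, GRCm38, plus strand) was at 5.80, 6.33 and 7.59, then 24.6, 21.6 and 12.0 and then 41.4, 20.9 and 24.1 TPM. Here too week 2 lay below every later library (log2 1.92 ± 0.30, SE, adjusted p = 0.00555). Its partner kinase Bub1 had the largest change among the members, from 4.18 ± 0.803 to 21.4 ± 12.2 TPM (log2 1.99, adjusted p = 0.00621).

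Further mitotic genes rose by steps of the same order. Top2a went from 43.0 ± 3.68 to 148 ± 71.5 TPM (log2 1.66, adjusted p = 0.00782) and Cdk1, the kinase of mitotic entry, from 11.1 ± 5.94 to 32.1 ± 16.2 TPM (log2 1.45, adjusted p = 0.0297). Kif11, the motor that drives spindle poles apart, rose by log2 1.90, the kinetochore motor Cenpe by 1.86, the spindle protein Nusap1 by 1.84 and the kinetochore protein Cenpf by 1.74. The mitotic cyclins Ccna2, Ccnb2 and Ccnb1 rose by 1.58, 1.54 and 1.17. Aurkb and Birc5, partners in the chromosomal passenger complex, rose by 1.49 and 1.43, the spindle factor Tpx2 by 1.63, the checkpoint kinase Ttk by 1.58 and Ube2c, a ubiquitin enzyme of mitotic exit, by 1.56. The mitotic members with positive values that did not pass were Kif20a at log2 0.92 (adjusted p = 0.0766), Foxm1, a transcription factor of mitotic genes, at 0.91 (0.0838), Plk1 at 0.81 (0.0995), Aurka at 0.65 (0.0819) and Cdc20, the activator of the anaphase-promoting complex, at 0.59 (0.173).

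Kif23 and Cenpa differed from these. Kif23 (chromosome 9, 61915905 to 61946774, GRCm38, minus strand) was at 82.2, 73.2 and 75.2 TPM in week 2, 56.9, 60.8 and 59.1 TPM in week 3 and 37.6, 38.5 and 62.2 TPM in week 4. Every week 2 library lay above every later one, and Kif23 fell by 0.76 on the log2 scale (SE 0.18, adjusted p = 0.0208). Cenpa (chromosome 5, 30666777 to 30674830, GRCm38, plus strand) was at 211, 203 and 194 TPM, then 149.6, 154 and 156 TPM and then 206, 167 and 236 TPM. Its weeks 2 and 4 overlapped (log2 -0.01, adjusted p = 0.956), and only Pcna was more abundant among the members in CD8 T cells.

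Among S phase members the largest rise was that of Gins2 (chromosome 8, 120578633 to 120589304, GRCm38, minus strand), a subunit of the helicase complex at the fork. It was at 9.92, 4.44 and 11.3 TPM in week 2, 22.0, 13.5 and 12.3 TPM in week 3 and 45.0, 24.4 and 19.7 TPM in week 4, the last lying above all of week 2 (log2 1.68 ± 0.38, SE, adjusted p = 0.0196). Its exons share 67.3% of their bases with Gse1 on the opposite strand. Whether counting used strand is not given in the sources used here, so reads of these genes may be mixed. Kif20a (29.3%, with Cdc23), Ube2c (22.8%, with Tnnc2), Ccne2 (17.4%, with Ints8) and Ccna2 (12.5%, with Exosc9) share exon bases with an opposite gene to a lesser extent. Tyms rose by 1.42, the transcription factor E2f1 by 1.26, the S phase cyclin Ccne2 by 0.87, Rrm1 by 0.85 and Mcm6 by 0.78. Not past the threshold were Rrm2 at 0.88, Mcm2 at 0.86, Cdc6 at 0.86, Mcm5 at 0.72, Mcm3 at 0.61, Pcna at 0.40, Mcm4 at 0.27, Ccne1 at 0.23 and Mcm7 at 0.07. Cdt1, the licensing factor that is destroyed once S phase begins, was at 104, 117 and 76.1 TPM in week 2 and 43.3, 62.8 and 81.4 TPM in week 4, with overlap (log2 -0.68, adjusted p = 0.0845).

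The number of calls depended on single libraries. Week 4 replicate 2 held the highest value of its group for 14 of 16 S phase and 22 of 24 mitotic members. Without it, 16 members were called higher instead of 23, and the mitotic and S phase medians were 1.18 and 0.55. Without week 2 replicate 1, or without replicate 2, 11 were. The share of all genes called is not given for these fits. In each of the 6 fits that left out 1 library, 10 members kept their call: E2f1, Mki67, Top2a, Ccnb2, Bub1, Bub1b, Cenpe, Cenpf, Kif11 and Tpx2. The call of Kif23 was lost without week 4 replicate 2 or 3 and without week 2 replicate 1 or 2, with log2 fold changes of -0.99 to -0.64 over the 6 fits.

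**Figure D2:**
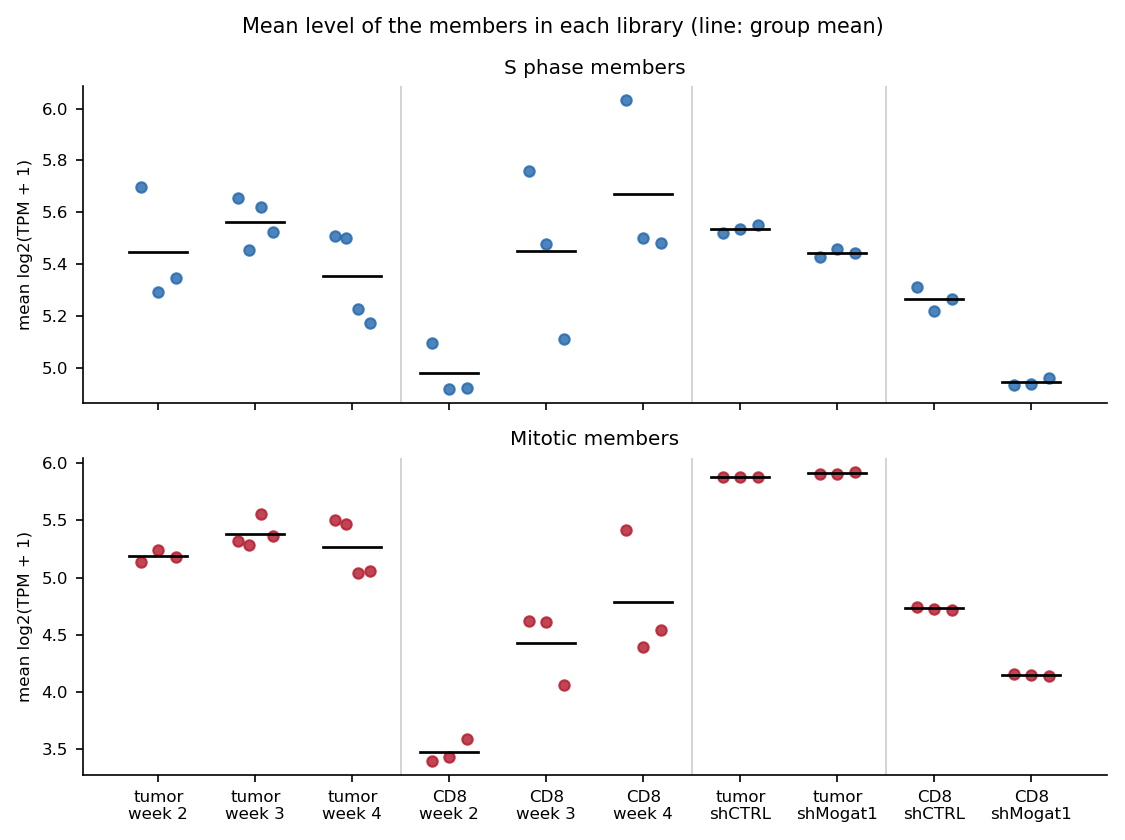
Each point is 1 library, with the mean log2(TPM + 1) of the 16 S phase members or the 24 mitotic members on the y axis and the group on the x axis. The mitotic level in CD8 T cells was lowest at week 2, at 3.48 ± 0.10 (SD), and lower under shMogat1 than under shCTRL. The tables were scaled separately.

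Week 3 gave no call among the members, and its comparisons share libraries with that of week 4 and week 2. From week 2 to week 3, limma called 0 members higher and 0 lower, against 0.0449% of all genes higher and 0% lower. An unadjusted p under 0.05 was found for 21 mitotic and 7 S phase members and for 13.7% of all genes. The median log2 fold change was 1.13 over mitotic and 0.50 over S phase members and 0.10 over all genes. The largest was that of Bub1b, at 1.38 (adjusted p = 0.234). Of the mitotic members named in every comparison, Mki67 was at 1.34 (0.234), with Ccnb1 at 1.20, Plk1 at 1.14, Top2a at 1.07, Birc5 at 1.04, Cdk1 at 0.85, Foxm1 at 0.71, Aurka at 0.70 and Cdc20 at 0.61. Of the S phase members, Rrm2 at 0.86, E2f1 at 0.78, Tyms at 0.72, Mcm2 at 0.68, Cdc6 at 0.65, Mcm5 at 0.53, Ccne1 at 0.48 and Ccne2 at 0.47 lay above 0, with Pcna at -0.01 and Cdt1 at -0.19 below it. Week 3 replicate 4 was the lowest of its group for 15 of 16 S phase and 21 of 24 mitotic members. When limma weighted libraries by their quality, 21 members were called higher, 19 of them mitotic. The share of all genes called is not given for that fit, so this count has no background beside it. The medians in it were 1.24 over mitotic members, 0.52 over S phase members and 0.09 over all genes.

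From week 3 to week 4, limma again called 0 members, against 1.38% of all genes higher and 1.29% lower, and 5 mitotic and 2 S phase members had an unadjusted p under 0.05, as did 24.5% of all genes, a share above that of the members. The medians were 0.39 and 0.20, with -0.13 over all genes. Log2 fold changes above 0 were those of Tyms (0.70), Mki67 (0.63), Cdk1 (0.60), Top2a (0.59), E2f1 (0.49), Pcna (0.41), Ccne2 (0.39), Birc5 (0.38), Cdc6 (0.21), Foxm1 (0.20), Mcm5 (0.20), Mcm2 (0.18) and Rrm2 (0.02). Below 0 were Ccnb1 (-0.03), Cdc20 (-0.03), Aurka (-0.05), Ccne1 (-0.25), Plk1 (-0.32) and Cdt1 (-0.49). None of these differences passed the test against the spread between replicates.

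Markers of other cells were present in the CD8 libraries. The summed TPM of 10 epithelial markers was 95.3 (78.1 to 123) at week 2, 203 (142 to 247) at week 3 and 213 (163 to 248) at week 4, given as mean and range. These sums were 7.07%, 10.3% and 9.64% of those in tumor cells of the same weeks. From week 2 to week 4, 1 of 9 tested was called higher and 1 lower, against 10.3% and 7.18% of all genes. Within the list, Cdh1 was at 23.3, 65.8 and 109 TPM by week, against 82.5, 149 and 159 TPM in tumor cells. Epcam was at 19.6, 37.7 and 35.3 TPM, against 305, 458 and 529 TPM. At week 4, Cdh1 was the largest part of the epithelial sum. Macrophage and monocyte markers summed to 281, 606 and 425 TPM, fibroblast markers to 835, 878 and 1051 TPM, and T cell markers to 5419, 5056 and 5669 TPM. The fibroblast sum was mostly Thy1, which T cells also express and which went from 535 ± 34.5 to 1003 ± 234 TPM from week 2 to week 4. The other 7 fibroblast markers had log2 fold changes below 0 without a call, and the median of the list was -1.68. At week 4 the mean of Mki67 was 101 TPM in CD8 T cells and 76.9 TPM in tumor cells, and that of Top2a 148 and 109.8 TPM. The part of other cell types in the members' values was not tested.

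In the knockdown set, CD8 T cells labelled shMogat1 held less of nearly every mitotic gene than those labelled shCTRL. By limma, 22 of 24 mitotic and 12 of 16 S phase members were lower, and 2 mitotic members were higher. Of the 13742 genes tested, 26.2% were called lower and 16.6% higher. The median log2 fold change was -0.65 over mitotic and -0.36 over S phase members, against -0.05 over all genes. The mean mitotic level, as log2(TPM + 1), was 4.73 ± 0.01 in shCTRL and 4.15 ± 0.01 in shMogat1 (SD, n = 3 each).

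Bub1b was at 23.9, 22.7 and 23.8 TPM in the libraries labelled shCTRL and at 11.8, 11.04 and 12.7 TPM in those labelled shMogat1. The arms lay far apart, and this was the largest fall among the members (log2 -0.93 ± 0.06, SE, adjusted p = 2.45e-05). Rrm2 (chromosome 12, 24708241 to 24714146, GRCm38, plus strand), the regulated subunit of ribonucleotide reductase, was at 55.3, 49.97 and 53.9 TPM against 26.5, 25.8 and 31.2 TPM, also without overlap (log2 -0.91 ± 0.08, SE, adjusted p = 6.65e-05). Mki67 was at 60.3, 66.2 and 61.3 TPM against 36.4, 36.0 and 34.2 TPM, each library of 1 arm above each of the other (log2 -0.80 ± 0.05, SE, adjusted p = 1.46e-05).

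The other mitotic members that fell did so by 0.23 (Aurka) to 0.88 (Ccnb2) on the log2 scale. Among regulators, the log2 fold changes were Aurkb (-0.77), Cdk1 (-0.71), Ccna2 (-0.69), Foxm1 (-0.62), Plk1 (-0.58), Birc5 (-0.57), Ccnb1 (-0.51) and Cdc20 (-0.47). Among proteins of the spindle and kinetochore they were Nusap1 (-0.79), Ttk (-0.76), Cenpe (-0.74), Tpx2 (-0.73), Bub1 (-0.67), Cenpf (-0.60), Kif11 (-0.57) and Kif20a (-0.56), while those of Top2a and Ube2c were -0.75 and -0.63. Of the S phase members, Cdc6 fell from 6.09 ± 0.267 to 3.48 ± 0.0890 TPM (log2 -0.66), followed by Gins2 (-0.65), E2f1 (-0.45), Tyms (-0.45), Ccne1 (-0.40), Mcm5 (-0.39), Mcm2 (-0.37), Mcm7 (-0.34), Mcm3 (-0.30), Mcm6 (-0.19) and Rrm1 (-0.18). Not past the threshold were Pcna at 0.10, Cdt1 at 0.06, Ccne2 at 0.04 and Mcm4 at -0.05.

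Cenpa and Kif23 were the 2 members called higher. Cenpa was at 138, 131 and 135 TPM in shCTRL and at 172, 171 and 167 TPM in shMogat1 (log2 0.34 ± 0.03, SE, adjusted p = 0.000139). Kif23 was at 59.8, 60.7 and 57.0 TPM and at 69.7, 71.1 and 74.7 TPM (log2 0.28 ± 0.04, SE, adjusted p = 0.00159). In both genes the arms did not overlap, and in both the order was the reverse of that of the other mitotic members.

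Of the 36 calls, 35 were kept in each of the 6 fits that left out 1 library. Aurka lost its call without shMogat1 replicate 2 or 3 and without shCTRL replicate 1. Markers of other cells also differed between these arms. Fibroblast markers summed to 2559 (2513 to 2629) TPM in shCTRL and 1514 (1494 to 1552) TPM in shMogat1, with 7 of 8 called lower. Epithelial markers summed to 98.5 (94.1 to 101) and 242 (241 to 244) TPM, with 8 of 10 called higher and 1 lower. Within this list, Krt14 and Krt5 were below 1 TPM in every shCTRL library and passed the filter only through shMogat1 libraries. These epithelial sums were 47.4% and 25.0% of those in tumor cells of the same arms, where both sums had the same order. Of the markers read, none had a mean of 0 in CD8 T cells. Macrophage and monocyte markers summed to 2324 and 2557 TPM and T cell markers to 4328 and 4434 TPM. Markers of CD4 and regulatory T cells summed to 217 (205 to 224) and 321 (316 to 329) TPM, with 4 of 5 called higher and 1 lower. Their part in the fall of the members was not tested.

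**Figure D3:**
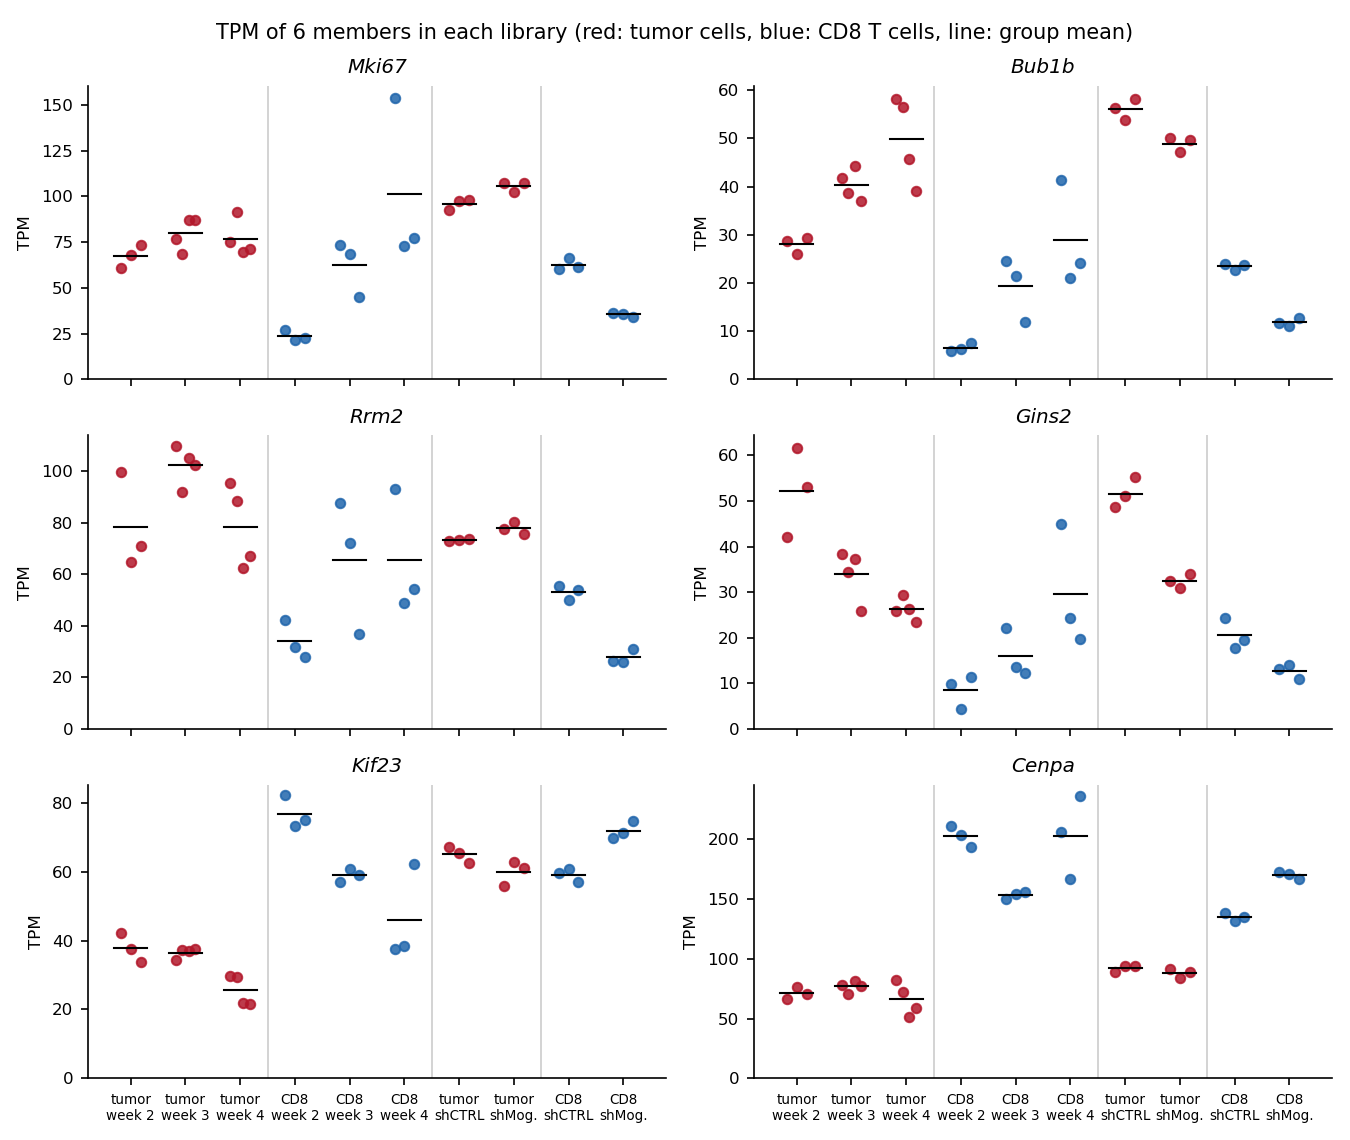
TPM (y axis) of 6 members in each library, by group (x axis), with lines at group means; tumor cells are red, CD8 T cells blue, and shMog. stands for shMogat1. In CD8 T cells, Mki67 lay at 34.2 to 36.4 TPM under shMogat1 and 60.3 to 66.2 TPM under shCTRL, while Cenpa and Kif23 had the reverse order.

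In tumor cells the members did not move together over time. From week 2 to week 4, 2 mitotic members were higher, and 2 mitotic and 3 S phase members were lower, against 29.2% of the 14770 genes tested called higher and 17.1% lower by limma. The median log2 fold change was 0.15 over mitotic members, -0.02 over S phase members and 0.11 over all genes. Under median-of-ratios scaling the median of all genes was -0.01 and those of the members 0.01 and -0.16.

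Gins2 was at 42.1, 61.5 and 52.9 TPM in week 2, 38.4, 34.3, 37.3 and 25.9 TPM in week 3 and 25.8, 29.4, 26.4 and 23.5 TPM in week 4. Every week 2 library lay above every later one, and the gene fell by 0.95 on the log2 scale to week 4 (SE 0.16, adjusted p = 0.000703). Pcna was at 431, 504 and 587 TPM in week 2 and 392, 371, 331 and 300.4 TPM in week 4, without overlap (log2 -0.54 ± 0.12, SE, adjusted p = 0.00398). Kif23 was at 42.1, 37.5 and 33.7 TPM and 29.7, 29.4, 22.0 and 21.5 TPM, again without overlap (log2 -0.55 ± 0.13, SE, adjusted p = 0.00599). Mcm6 fell by 0.41 and Cdk1 by 0.55 (adjusted p = 0.0493), the latter with overlapping libraries.

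Bub1b and Birc5 were the members that rose. Bub1b was at 28.7, 26.0 and 29.4 TPM in week 2, 41.9, 38.7, 44.2 and 36.9 TPM in week 3 and 58.2, 56.4, 45.8 and 39.2 TPM in week 4, all later libraries lying above week 2 (log2 0.79 ± 0.14, SE, adjusted p = 0.000863). Birc5, the survivin gene, went from 49.0 ± 9.87 to 69.2 ± 12.5 TPM (log2 0.49, adjusted p = 0.0231). Mki67 was at 60.9, 68.2 and 73.3 TPM in week 2 and 75.0, 91.4, 69.7 and 71.4 TPM in week 4 and overlapped (log2 0.18, adjusted p = 0.246). Also not past the threshold were Plk1 (0.62), Aurka (0.49), Cdc20 (0.34), Foxm1 (0.30), E2f1 (0.28), Cdt1 (0.26), Cdc6 (0.15), Mcm5 (0.11), Tyms (0.05), Mcm2 (0.02) and Rrm2 (0.00099) and, below 0, Ccne1 (-0.17), Ccne2 (-0.21), Top2a (-0.26) and Ccnb1 (-0.43), each a log2 fold change.

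Single libraries changed this picture. Week 2 replicate 1 held the highest value of its group for 12 of 16 S phase members and the lowest for 13 of 24 mitotic members, with Mcm2 at 66.2, 32.3 and 31.5 TPM in replicates 1, 2 and 3. Ptprc, the common leukocyte antigen, was at 98.1 TPM in it and at 27.4 and 42.2 TPM in the others. Without replicate 1, 9 members were called higher, 5 of them S phase members, among them Plk1 (0.93), Cdt1 (0.72) and Foxm1 (0.57), and 5 lower. In that fit the medians were 0.11 over S phase members, -0.01 over mitotic members and 0.17 over all genes. The share of all genes called is not given for this or the other fits without 1 library, so their counts have no background beside them. In week 4, replicates 1 and 2 held the highest value of every member and replicates 3 and 4 the lowest, while mitochondrial transcripts took 9.90%, 10.1%, 16.1% and 9.82% of TPM in replicates 1 to 4, whose part was not tested. Without replicate 3, 6 members were higher and 3 lower, without replicate 4, 4 and 3, and without week 4 replicate 1 or week 2 replicate 2, 1 was higher. Gins2, Pcna, Bub1b and Kif23 kept their calls in all 7 such fits, and Mcm6, Cdk1 and Birc5 lost theirs in 3 or 4 of them.

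At week 3, 5 mitotic members were higher than at week 2 and 1 S phase member was lower, against 20.1% and 4.01% of all genes by limma. Foxm1 was at 31.1, 18.8 and 16.01 TPM in week 2 and 33.9, 35.5, 36.8 and 35.4 TPM in week 3, without overlap (log2 0.72 ± 0.19, SE, adjusted p = 0.0193). Plk1 rose by 0.83, Bub1b by 0.51, Cdc20 by 0.49 and Kif20a, a kinesin of cytokinesis, by 0.36, and Gins2 fell by 0.60. The fixed members not called lay at Cdt1 (0.63), Aurka (0.51), Mcm2 (0.44), Birc5 (0.41), Rrm2 (0.40), Mcm5 (0.32), E2f1 (0.25), Mki67 (0.24), Ccne1 (0.18), Cdc6 (0.17) and Tyms (0.08) and, below 0, at Ccne2 (-0.04), Ccnb1 (-0.09), Top2a (-0.10), Cdk1 (-0.26) and Pcna (-0.32). No call was kept in all 7 fits without 1 library. Without week 2 replicate 2 no member was called, and without week 2 replicate 1, 12 were higher and 2 lower. Without week 3 replicate 1 or 3, 1 was higher, and without week 3 replicate 4 or week 2 replicate 3, 3 were. For these fits too the share of all genes called is not given.

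From week 3 to week 4, Kif23 was the member called. It was at 34.2, 37.3, 36.9 and 37.5 TPM in week 3 and at 29.7, 29.4, 22.0 and 21.5 TPM in week 4, without overlap (log2 -0.51 ± 0.12, SE, adjusted p = 0.0196), against 8.19% of all genes lower and 5.53% higher. Limma called 0 members higher, and 3 mitotic and 2 S phase members had an unadjusted p under 0.05, as did 28.6% of all genes, a share above that of the members. The call was lost without week 4 replicate 3 or 4 and without week 3 replicate 2, 3 or 4. The medians were -0.10 over mitotic and -0.21 over S phase members. The fixed members lay at Birc5 (0.09) and E2f1 (0.03) and, below 0, at Aurka (-0.02), Cdc6 (-0.03), Tyms (-0.03), Mki67 (-0.05), Top2a (-0.15), Ccne2 (-0.16), Cdc20 (-0.16), Plk1 (-0.21), Mcm5 (-0.21), Pcna (-0.22), Cdk1 (-0.29), Ccnb1 (-0.34), Ccne1 (-0.35), Cdt1 (-0.37), Rrm2 (-0.40), Mcm2 (-0.41) and Foxm1 (-0.42).

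In tumor cells, summed markers of lymphocytes were lower in the later weeks and those of epithelial cells higher. T cell markers summed to 135, 56.5 and 27.6 TPM at weeks 2, 3 and 4, B cell markers to 86.0, 19.9 and 4.29 TPM, and epithelial markers to 1347, 1965 and 2207 TPM. Within the epithelial list, 6 of 10 were called higher from week 2 to week 4 and 3 lower: Krt5 went from 23.6 ± 1.36 to 1.07 ± 0.106 TPM, Krt14 from 95.4 ± 12.7 to 30.5 ± 4.57 TPM and Krt19 from 27.1 ± 10.1 to 4.16 ± 1.75 TPM. Endothelial markers summed to 150.3 (105 to 212) TPM at week 2, 167 (87.8 to 223) at week 3 and 32.8 (26.0 to 38.8) at week 4, with 5 of 7 called lower from week 2 to week 4. Their part in the members' values was not tested.

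In tumor cells of the knockdown set, 10 mitotic and 2 S phase members were higher under shMogat1 and 4 of each phase lower, against 34.6% and 19.9% of the 12936 genes tested by limma. The median log2 fold change was 0.06 over mitotic, -0.02 over S phase members and 0.07 over all genes. Under median-of-ratios scaling, 3 members were higher and 17 lower, with no share of all genes called given for that fit. The medians in it were -0.03 over mitotic members, -0.11 over S phase members and -0.01 over all genes. Values above 0 went from 15 to 11 of 24 mitotic and from 6 to 2 of 16 S phase members, so most members kept their side while calls were lost and gained.

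The larger changes were in single genes of each process. Cdt1 was at 40.1, 42.8 and 41.5 TPM under shCTRL and 23.9, 26.7 and 22.2 TPM under shMogat1 (log2 -0.75 ± 0.06, SE, adjusted p = 3.19e-05). Gins2 was at 48.7, 51.0 and 55.2 TPM and 32.4, 30.8 and 34.1 TPM (log2 -0.65 ± 0.05, SE, adjusted p = 2.91e-05). In both genes the arms lay far apart, and both act in the loading or firing of the helicase. Mcm5 went from 88.9 ± 1.81 to 62.0 ± 0.990 TPM (log2 -0.51, adjusted p = 2.51e-06), while the other subunits of its ring did not pass: Mcm2 at 0.03, Mcm7 at 0.03, Mcm4 at -0.0011, Mcm6 at -0.03 and Mcm3 at -0.07. Cenpe was at 35.8, 35.9 and 36.7 TPM and 21.8, 22.8 and 22.8 TPM (log2 -0.66 ± 0.04, SE, adjusted p = 2.86e-06), and Kif11, another spindle motor, at 38.1, 39.5 and 37.8 TPM and 59.0, 56.4 and 53.5 TPM (log2 0.54 ± 0.04, SE, adjusted p = 1.91e-05). These motors moved in opposite directions, each without overlap.

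Cdc6 rose from 5.91 ± 0.838 to 8.37 ± 0.531 TPM (log2 0.45). The other calls were smaller, higher for Birc5 (0.23), Aurkb (0.17), Top2a (0.17), Ccna2 (0.16), Cenpf (0.15), Mki67 (0.14), Nusap1 (0.13), Ube2c (0.13), Plk1 (0.10) and Rrm2 (0.09) and lower for Bub1b (-0.19), Rrm1 (-0.12), Cdc20 (-0.11) and Ccnb1 (-0.09). Rrm2, Ccnb1, Cdc20, Plk1 and Cenpf lost their calls when single libraries were left out, and Rrm2 was at -0.003 under median-of-ratios scaling. Not called were Tyms (0.11), Ccne2 (0.06), Aurka (0.05), Foxm1 (0.02), Pcna (-0.01), E2f1 (-0.03), Cdk1 (-0.05) and Ccne1 (-0.08). Epithelial markers summed to 208 (202 to 218) TPM under shCTRL and 971 (955 to 998) TPM under shMogat1, with 9 of 9 tested called higher. Among these, Epcam, Krt14 and Krt5 were below 1 TPM in every shCTRL library and passed the filter only through shMogat1 libraries. Their direction was thus fixed by the filter. Fibroblast markers summed to 5127 (5107 to 5149.8) and 2863 (2831 to 2921) TPM. Of these, 4 of 8 were called higher and 3 lower, with a median log2 fold change of 0.13. Macrophage and monocyte markers summed to 371 and 701 TPM, with 10 of 10 called higher. Of all genes, 34.6% were called higher and 19.9% lower. The part of these markers in the members' values was not tested.

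**Figure D4:**
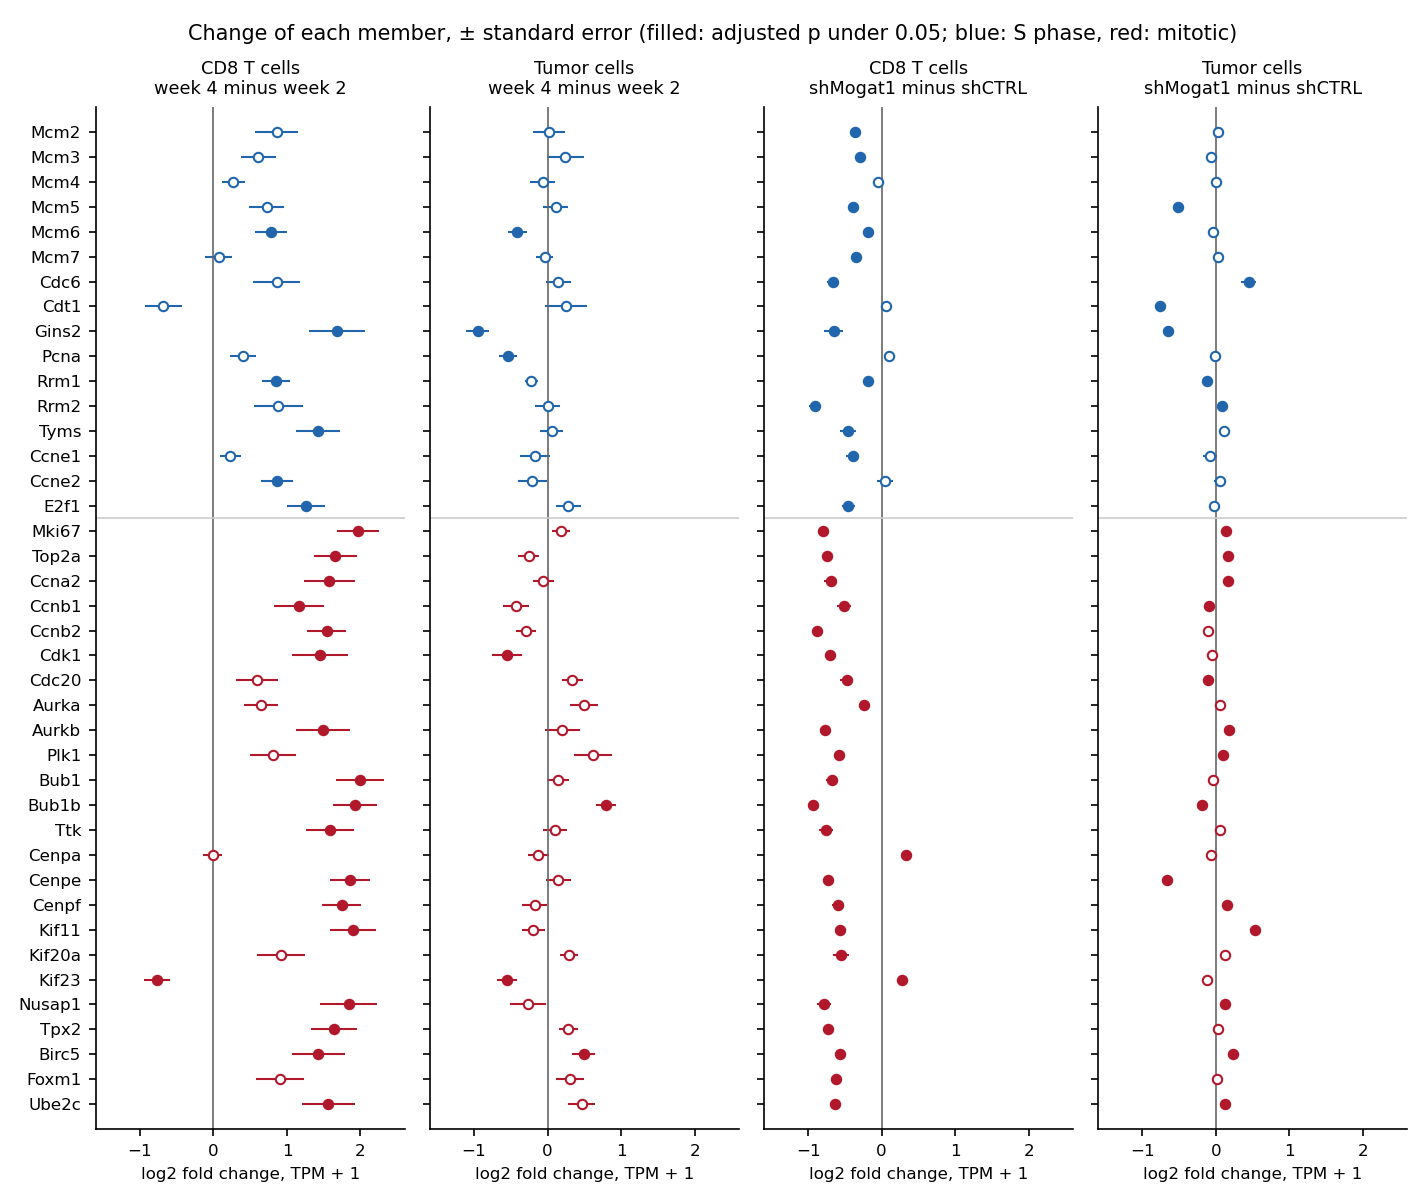
Log2 fold change of TPM + 1 (x axis) with its standard error for each member (y axis) in 4 comparisons, filled where the adjusted p was under 0.05; S phase members are blue and mitotic members red. In CD8 T cells, 17 of 24 mitotic members were called higher from week 2 to week 4 and 22 of 24 lower under shMogat1, while in tumor cells members lay on both sides of 0.

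Set beside each other as levels, with no test since the tables were scaled separately, tumor cells held more of the mitotic members than CD8 T cells. The median ratio of tumor to CD8 mean TPM over the mitotic members was 4.16 at week 2, 2.24 at week 3 and 1.47 at week 4, with 22, 22 and 17 of 24 higher in tumor cells. Over the S phase members it was 1.37, 1.11 and 0.779. Ccnb1 had a ratio of 8.53 at week 2, while Cenpa (0.352), Kif23 (0.491) and Cdt1 (0.384) were more abundant in CD8 T cells. In the knockdown set the mitotic ratio was 2.41 under shCTRL and 4.11 under shMogat1.

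Other genes of the pathway were read from 4 further lists. In CD8 T cells at week 4 against week 2, 23 of 40 other replication genes and 32 of 47 other mitotic genes tested were higher and none lower, with medians of 0.79 and 1.25, against the 10.3% given above. The thymidine kinase Tk1 rose by 1.76, the motor Kif15 by 1.94, the kinase Pbk by 1.86, the kinetochore protein Cenph by 1.85 and the spindle protein Hmmr by 1.74. Cdc45, which joins Gins2 in the active helicase, rose by 1.43 and Pola1, the catalytic subunit of polymerase alpha, by 1.39. Under shMogat1 in these cells, 28 of 40 and 42 of 47 were lower and 1 of each list higher, against 26.2% and 16.6% of all genes. Among those lower were Cenph (-1.09), Kif15 (-1.03), Spc24 (-0.99), Ckap2 (-0.97), Uhrf1 (-0.69), Cdc45 (-0.64) and Mcm10 (-0.63). In tumor cells from week 2 to week 4, 7 replication genes were higher and 6 lower, and 10 mitotic genes higher and 13 lower, against 29.2% and 17.1% of all genes, with Kif18b (1.17), Espl1 (1.09), Uhrf1 (0.94), Gmnn (-0.64), Dut (-0.73), Anln (-1.41), Chaf1a (0.66) and Ncapd2 (0.89) among them. From week 2 to week 3 in tumor cells, 3 replication and 7 mitotic genes were higher and 1 and 2 lower, against 20.1% and 4.01% of all genes, with Uhrf1 (0.74), Chaf1b (0.43), Pold2 (0.38), Pola1 (-0.33), Kif18b (1.08), Espl1 (1.05), Ncapd2 (0.84) and Incenp (0.77) among them. From week 3 to week 4, those called were lower: Dut (-0.46), Anln (-0.76) and Ckap2 (-0.53). In tumor cells under shMogat1 these counts were 8 and 4, and 13 and 8, against 34.6% of all genes higher and 19.9% lower. Gins3, a partner of Gins2 in the same complex, went from 17.1 ± 0.219 to 6.82 ± 0.373 TPM there (log2 -1.22, adjusted p = 1.1e-06). Other calls in these lists were Fen1 (0.45), Pola2 (0.44), Dut (0.43), Kif20b (0.63), Cep55 (0.57), Incenp (0.48) and Ckap2 (-0.76). In CD8 T cells from week 2 to week 3, limma called 0 of either list, with 15 of 40 replication and 34 of 47 mitotic genes at an unadjusted p under 0.05, and from week 3 to week 4 also 0, with 8 of 40 and 6 of 47. Of all genes, 13.7% and 24.5% had such a p in these comparisons.

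Regulators of G1 were read in the same way. At week 4 of the CD8 T cells, 3 of 12 G1 cyclins and kinases were higher than at week 2: Cdk6, a kinase of cyclin D, went from 22.3 ± 0.737 to 78.3 ± 9.80 TPM (log2 1.76, adjusted p = 0.00121), E2f3 rose by 0.77 and Cdk4 by 0.51. Of 26 cell cycle brakes, 6 rose and 3 fell, against 10.3% and 7.18% of all genes. Cdkn2c, an inhibitor of Cdk4 and Cdk6, went from 8.01 ± 1.21 to 27.7 ± 8.61 TPM (log2 1.64) and Cdkn1b, the p27 gene, from 451 ± 67.3 to 277 ± 61.5 TPM (log2 -0.72, adjusted p = 0.0259). Lin54, a subunit of the MuvB complex, rose by 1.27, the kinase Wee1, which holds Cdk1 inactive, by 0.97 and Cdkn2b by 0.89. Ccnd1 at 0.25, Ccnd2 at -0.53, Myc at 0.43, Cdkn1a at 0.21 and Cdkn2a at 1.26 did not pass. From week 2 to week 3, Ccnd1 (1.16), Ccnd2 (0.21), Myc (0.66), Cdkn1a (0.42), Cdkn1b (-0.42) and Cdkn2a (0.80) did not pass, nor did Ccnd1 (-0.91), Ccnd2 (-0.74), Myc (-0.23), Cdkn1a (-0.21), Cdkn1b (-0.30) and Cdkn2a (0.46) from week 3 to week 4, when Cdk6 rose by 0.97 and Lin54 by 0.89 and E2f5 fell by 0.74.

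Under shMogat1 in CD8 T cells, 6 of 12 G1 cyclins and kinases were lower and 1 higher, and 10 of 26 brakes lower and 7 higher, against 26.2% of all genes lower and 16.6% higher. Ccnd1 fell by 0.59, Cdk4 by 0.44, Myc by 0.43, Cdkn2c by 0.72 and Cdkn1a by 0.31, as did E2f2 (-0.30), Wee1 (-0.59) and E2f8 (-0.57), given as log2 fold changes. Ccnd2 rose by 0.30, Cdkn1b by 0.36 and Cdkn2a by 1.37.

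In tumor cells from week 2 to week 4, 2 of 12 G1 cyclins and kinases were higher and 3 lower. Of 26 brakes, 2 were higher and 8 lower, against 29.2% of all genes higher and 17.1% lower. Cdkn1a, the p21 gene and a target of p53, went from 247 ± 131 to 66.2 ± 8.90 TPM (log2 -1.76, adjusted p = 0.00116). Mdm2 and Ccng1, also p53 targets, stand in the list of brakes and were called lower, by 1.59 and 0.74. Mdm2 acts against p53, so it is not itself a brake. Cdc25a, a phosphatase that opens S phase, went from 13.1 ± 1.36 to 28.3 ± 2.73 TPM (log2 1.05, adjusted p = 7.63e-05), Cdkn2a rose by 0.72 and Cdkn1b by 0.41, while Ccnd1 at -0.32, Ccnd2 at -0.59 and Myc at 0.19 did not pass. Other calls were Cdk6 (-0.97), E2f3 (0.53), Ccnh (-0.42) and Wee1 (-0.84). By week 3, Cdkn2a was higher by 0.68, with calls also for Cdkn2b (1.33), Mdm2 (-0.84), Btg2 (0.48) and Cdc25a (0.82), and Ccnd1 (0.17), Ccnd2 (-0.12), Myc (0.23), Cdkn1a (-0.44) and Cdkn1b (0.28) did not pass. From week 3 to week 4, Cdkn1a fell by 1.31, with Cdkn2b (-0.77), Mdm2 (-0.75) and Cdkn2d (-0.61) also lower, and Ccnd1 (-0.49), Ccnd2 (-0.48), Myc (-0.04), Cdkn1b (0.14) and Cdkn2a (0.04) did not pass.

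In tumor cells of the knockdown set, Cdkn2a and Cdkn2b, neighbouring genes that encode inhibitors of Cdk4 and Cdk6, were listed at 0 in all 3 libraries labelled shCTRL. They were at 12.3 ± 1.01 and 1.45 ± 0.430 TPM under shMogat1, and Cdkn2a was at 80.0 ± 17.8 TPM in tumor cells of week 4. Under shMogat1, 3 of 12 G1 cyclins and kinases were higher and 2 lower. Of 25 brakes tested, 9 were higher and 8 lower, against 34.6% of all genes higher and 19.9% lower. Among those higher were Cdkn2a and Cdkn2b, which passed the filter on low values only through the libraries labelled shMogat1. The filter thus fixed the direction of these genes. Cdkn1a fell by 0.68 under shMogat1, Tob1 by 0.93, Wee1 by 0.69 and Ccnd2 by 0.67. E2f2 rose by 0.94, Cdk4 by 0.15 and Cdk2 by 0.14, while Ccnd1 at -0.04, Myc at -0.06 and Cdkn1b at -0.03 did not pass.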

How the data were processed

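Messenger RNA was sequenced from tumor cells and from CD8 T cells of mouse tumors, with RNA taken in TRIZOL and a stranded kit, per the labels' protocols. The authors deposited TPM values for each gene and library, in 1 table for each cell type and experiment. FastQC, Trim Galore, HISAT2 and mm10 are named in the submitters' processing notes, and the strand setting of the counting is not given in the sources used here. The 27 rows whose symbols had turned into dates held at most 0.184% of TPM and were left out. TPM does not remove a shift that a few abundant genes cause in all others.

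A gene was kept when 3 or more libraries of its table had 1 TPM or more, and was tested with limma 3.58.1 (R 4.3.3, lmFit and eBayes with trend) on log2(TPM + 1), with all groups of a table in 1 fit. Fold changes are on that scale, which understates those of low genes, and p-values carry Benjamini-Hochberg adjustment over all genes tested, with a threshold of 0.05. Read numbers were read from the steps of the TPM values, within 0.03 reads, and cover counting error only. The limma script and the read script were tested on simulated data.

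The members and lists were chosen with earlier results of these data known. By rule, 19 members were named in every comparison, with up to 6 further called members of each phase, all called members where fewer than 10 were called, and up to 4 called genes of each of 4 other lists, beside Ccnd1, Ccnd2, Myc, Cdkn1a, Cdkn1b and Cdkn2a. A gene that the rule names is not reported here. Alternatives were another pseudocount, no filter, other scalings, array weights, a replicate block, a fit of 2 weeks alone and leaving out each library. Tables were scaled separately, so levels between them carry no test.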

Additional observations from a re-analysis of the deposited data

Results flagged for a closer look

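For each member in each tumor group of 4 libraries, 80 sets of values in all, Dixon's criterion was read. In 3 sets 1 library stood apart from the others. Chance flags about 1 set in 20, so these flags are no more than chance gives. Cdc6 was at 6.02 TPM in week 3 replicate 2 and at 9.16 to 9.61 TPM in the others of its group. Rrm1 was at 85.6 TPM in week 3 replicate 3 and at 79.4 to 79.9 TPM in the others. Ccne2 was at 3.85 TPM in week 4 replicate 4 and at 6.75 to 7.22 TPM in the others.

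For some members every tumor library moved one way and every CD8 library the other under the same contrast, and the difference between the cell types was not tested. The values are the log2 fold change in tumor cells minus that in CD8 T cells. From week 2 to week 4 these were 3 of 40 members, Mcm6 (-1.19), Gins2 (-2.63) and Rrm1 (-1.07), lower in tumor cells and higher in CD8 T cells, as were 4.34% of the 12383 genes kept in both tables. Gins2 (-1.47) was the member for week 2 to week 3, with 0.791% of these genes in the same order. Between the libraries labelled shMogat1 and shCTRL, 12 of 40 members lay higher in tumor cells and lower in CD8 T cells, as did 12.4% of the 12170 genes kept in both tables. The tumor differences were mostly small: with median-of-ratios scaling 3 members instead of 12 were called higher in tumor cells, and Rrm2 was at -0.00304. The members were the S phase members Cdc6 (1.11) and Rrm2 (1.0), the regulators Ccna2 (0.85), Aurkb (0.94), Plk1 (0.68), Birc5 (0.81) and Ube2c (0.76), and Mki67 (0.94), Top2a (0.91), Cenpf (0.75), Kif11 (1.1) and Nusap1 (0.92).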

How the results depend on the processing

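Counts are of members called by limma, and the share of all genes called is not given for these alternatives. With median-of-ratios scaling, tumor cells had 1 higher and 9 lower from week 2 to week 4, 1 and 4 from week 2 to week 3, and 3 and 17 under shMogat1, where Rrm2 reversed to -0.00304. This scaling moved the median of all genes from 0.11 to -0.01 from week 2 to week 4 in tumor cells. With quantile normalization, tumor cells had 1 higher and 8 lower from week 2 to week 4, 1 higher from week 2 to week 3 and 2 lower from week 3 to week 4. Array weights gave, in tumor cells, 2 lower from week 2 to week 4, 0 lower from week 2 to week 3 and 5 lower from week 3 to week 4, and in CD8 T cells 2 lower, 21 higher and 3 lower for the same comparisons. With 2 weeks in a fit, tumor cells had 1 higher from week 2 to week 4, 3 higher and 0 lower from week 2 to week 3 and 4 lower from week 3 to week 4, and CD8 T cells had 0 lower from week 2 to week 4. With no filter, 3 were higher from week 2 to week 3 in tumor cells. The cause of these shifts was not tested. Leaving out 1 library gave, in tumor cells, 1 to 9 higher and 3 to 6 lower from week 2 to week 4, 0 to 12 higher and 0 to 2 lower from week 2 to week 3 and 0 to 1 lower from week 3 to week 4. The same gave 11 to 26 higher and 0 to 2 lower from week 2 to week 4 in CD8 T cells and 0 to 1 lower from week 3 to week 4. Counts of the CD8 knockdown comparison stayed within 1.5 times of their values in all alternatives run. With the replicate number as a block, 3 members were higher and 4 lower from week 2 to week 4 in tumor cells, 26 and 1 in CD8 T cells, 11 and 8 under shMogat1 in tumor cells and 2 and 30 in CD8 T cells. Same-numbered libraries of a table had correlations of -0.263 to 0.426. Libraries with different numbers were not correlated, so these values cannot decide whether the numbers mark pairs. The main fits took them as unpaired. The number of libraries, and for Kif20a, Ccne2 and Cdc6 the low level, limits the precision.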
